A study of Homo sapiens with 6 samples.

Results

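The genes of glycolysis and of the hypoxia response were followed in RNA-seq libraries of WM164, a human melanoma cell line whose genotype is given as BRAF V600E. They are 44 named genes, or 0.0727% of the 60504 genes in the deposited table, and each symbol was found once. The set holds 23 genes of glucose uptake and glycolysis and 21 of the hypoxia response. It was drawn up from the known functions of the genes, with earlier results of these data known, so counts of its calls are descriptive. The 6 libraries are 3 of cells with an empty expression vector (EV) and 3 of cells with an HDAC8 expression vector, both on the same BRAF-mutant background. According to the study's methods, plasmids were introduced by lipid transfection and cells were kept in hygromycin, and neither the labels nor the methods say whether a line is a single clone. The labels name no oxygen level and no drug. The methods leave sequencing out of the assays said to have been repeated independently, and whether replicates came from separate cultures is not stated, so p-values measure only the spread between these libraries.

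Depth ran from 34741092 to 42041453 total counts per library and overlapped between the groups. Transcripts of HDAC8 were at 384, 404 and 479 normalized counts (counts divided by a size factor for depth) in EV 1, 2 and 3 and at 485, 446 and 474 in HDAC8 1, 2 and 3. They did not differ beyond the spread (log2 fold change 0.15, SE 0.28, DESeq2 adjusted p = 0.856), so HDAC8 transcripts are no check of the labels, and each direction given here is that of the libraries labelled HDAC8. The share of mitochondrially encoded counts was 9.66% to 12.8% in EV and 4.46% to 7.94% in HDAC8. Of 8 melanocyte markers, MLANA, PMEL, TYR, DCT and S100B were called lower in HDAC8, the summed level was 244961 to 328760.5 in EV and 137043.5 to 182218 in HDAC8, and SOX10 and MITF, which specify the lineage, were expressed in all libraries. The part of these shares and markers in the results was not tested. In such bulk samples fewer cells of a type and less RNA per cell cannot be told apart. Of 19 markers of fibroblasts, keratinocytes, endothelial and blood cells, DCN, KRT1 and CDH5 were among those with no count. The marker CD3E was the one called, with no count in EV and 78.7, 91.2 and 50.1 normalized counts in HDAC8. PTPRC, the pan-leukocyte marker, was at 2.57 normalized counts in HDAC8 1 and at 0 elsewhere, and the summed level of the blood cell markers was 52.3 to 229.5 in EV and 130.0 to 268.3 in HDAC8. The summed level of the 5 fibroblast markers was 2347 to 2869 in EV and 1150 to 2188 in HDAC8, without overlap. COL1A1, PDGFRB and LUM were each lower in all HDAC8 libraries than in EV, and none was called. The summed levels of the keratinocyte and of the endothelial markers overlapped between the groups. The part of these markers in the results was not tested either.

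Glycolysis splits glucose into pyruvate in a chain of cytosolic reactions, and most steps can be run by more than 1 isozyme, each from its own gene. In melanoma and many other tumours the chain runs fast even with oxygen present, and much of the pyruvate leaves as lactate. When oxygen is short, prolyl hydroxylases (EGLN proteins) no longer mark HIF-1α and HIF-2α for destruction by the VHL ligase. The stabilised subunits pair with ARNT and bind hypoxia response elements, with the core ACGTG or GCGTG, near genes of glucose uptake, glycolysis, angiogenesis, acid balance and collagen modification. Since HIF is controlled mainly at the protein level, transcript levels of its subunits do not report its activity.

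Changes ran in both directions. Of the 44 genes, 42 had an adjusted p, and 6 were called higher and 6 lower in HDAC8 (DESeq2 adjusted p under 0.05 and a log2 fold change at or beyond 0.58 in either direction). Over all genes tested, 5.57% were called higher and 5.44% lower, or 11% in either direction. Where the mean reached 50 normalized counts, 14% of genes were called, and all 12 called members were among the 40 members above that level. All libraries of 1 group lay above those of the other in 22 of the 44 members, 11 higher and 11 lower, against 29.1% of all genes with an adjusted p. Where the mean reached 50 normalized counts, the groups were apart in 5054 of 14451 genes. The median log2 fold change was -0.08 over the members and -0.003 over all genes. The higher genes were KDELR3, PGAM1, P4HA2, PFKL, PGK1 and ENO1, and the lower genes were EPAS1, SLC2A3, DDIT4, PFKP, ENO2 and PFKFB3. Without the mitochondrially encoded genes in the fit, each member stayed on its side of the thresholds. That fit hardly differed from the main one, with SLC2A3 at -1.005 in both and PFKP at -0.774 against -0.773 (log2). It therefore could not show whether the mitochondrially encoded share has a part in the calls, which was not tested.

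**Figure D1:**
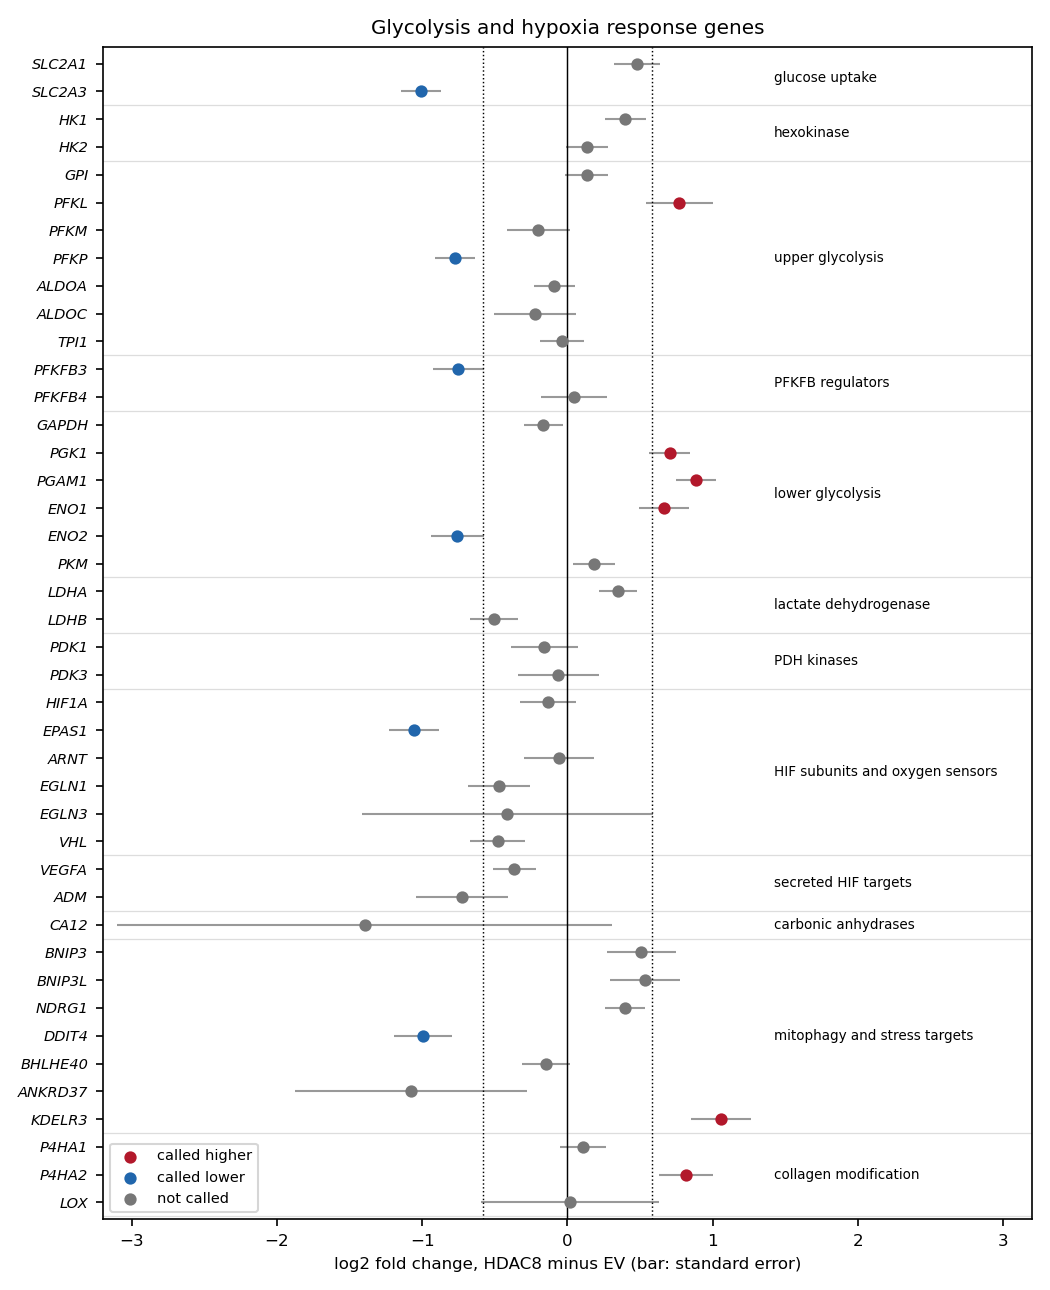
Log2 fold change of HDAC8 over EV (x axis) for the 42 members with an adjusted p, grouped by role, with bars for the standard error and dotted lines at the fold change minimum of 0.58 in either direction. The 6 genes called higher (red) lie between 0.66 and 1.06, the 6 called lower (blue) between -1.05 and -0.75, and the grey genes were not called, among them CA12 and ANKRD37, whose errors are wide.

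Of the glucose transporters, SLC2A3 fell. Positions given here are those of GENCODE release 44 (GRCh38), since the build behind the counts is not given in the sources used here. SLC2A3, which encodes the high-affinity transporter GLUT3 (ENSG00000059804, chromosome 12, 7919230 to 8019007, minus strand), had 8817, 9588 and 9095 normalized counts in EV 1, 2 and 3 and 4229, 5088 and 4389.6 in HDAC8 1, 2 and 3. All HDAC8 libraries were thus below all EV libraries, at about 49.8% of the EV level (log2 fold change -1.005, SE 0.14, DESeq2 adjusted p = 2.81e-11). Reads of this gene can be shared with processed copies, which reached 24.3% of its count in 1 library. With copies added, the values were 8940.4, 9848 and 9258 against 5256, 5214 and 4578, a log2 ratio of means of -0.90, and the groups stayed apart. SLC2A1, which encodes the widely used transporter GLUT1, had 5878, 8396 and 6469 in EV and 9886, 8907 and 10101 in HDAC8. The lowest HDAC8 library was above the highest EV library, and the adjusted p passed its threshold, but the change was under the fold minimum (log2 fold change 0.48, SE 0.16, DESeq2 adjusted p = 0.0246). Without EV replicate 2, the highest of the EV libraries, it was called, at a log2 fold change of 0.64 (DESeq2 adjusted p = 5.61e-04). The p threshold was missed with edgeR's quasi-likelihood test (adjusted p = 0.0928), limma-voom (0.0517) and a replicate block (DESeq2 adjusted p = 0.0613). It was also missed without EV replicate 1 (DESeq2 adjusted p = 0.229), EV replicate 3 (0.187) or HDAC8 replicate 3 (0.148). The ratio of SLC2A1 to SLC2A3, per kilobase of transcript, was 0.754, 0.990 and 0.804 in EV and 2.64, 1.98 and 2.60 in HDAC8. SLC2A3 was therefore the more abundant transporter transcript in EV 1 and EV 3 and SLC2A1 in each HDAC8 library, while their levels were nearly even in EV 2. A ratio within a library does not depend on the depth scaling. For such single values, 3 libraries against 3 cannot give a two-sided exact permutation p under 0.1, so no p is given for ratios.

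Neither gene of the hexokinases, which trap glucose in the cell by phosphorylation, was called. HK1, the constitutive form, had 6123, 7557 and 6724 normalized counts in EV and 9907, 8571 and 8455 in HDAC8, with groups that did not overlap and a change under the fold minimum (log2 fold change 0.40, SE 0.14, DESeq2 adjusted p = 0.0416). The p threshold was missed with edgeR's quasi-likelihood test (adjusted p = 0.114), limma-voom (0.0799) and a replicate block (DESeq2 adjusted p = 0.124). It was also missed without EV replicate 1 or 3 or HDAC8 replicate 2 or 3. HK2, the form often induced in tumours, had 13354, 15532 and 12402 in EV and 17279, 14248 and 13822 in HDAC8, and its groups overlapped (log2 fold change 0.14, SE 0.14, DESeq2 adjusted p = 0.678, 95% interval of the fold 0.902 to 1.34).

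Phosphofructokinase, the committed step, showed opposite changes among its isozymes. PFKP, the platelet form (ENSG00000067057, chromosome 10, 3066333 to 3137718, plus strand), fell from 9507, 11879 and 10005 normalized counts in EV to 6487, 5989 and 5892 in HDAC8, with no overlap (log2 fold change -0.77, SE 0.14, DESeq2 adjusted p = 1.45e-06). PFKL, the liver form (ENSG00000141959, chromosome 21, 44300051 to 44327376, plus strand), rose from 1634, 2346 and 1397 to 3943, 2586 and 2653, with EV 2 and HDAC8 2 only a little apart (log2 fold change 0.77, SE 0.23, DESeq2 adjusted p = 0.0094). The PFKL call was lost with edgeR's quasi-likelihood test (adjusted p = 0.0604) and without EV replicate 1 (DESeq2 adjusted p = 0.0884), EV replicate 3 (0.126) or HDAC8 replicate 1 (0.0568). The muscle form PFKM overlapped between the groups (log2 fold change -0.20, DESeq2 adjusted p = 0.681), with HDAC8 1 above every EV library and the other HDAC8 libraries below them. Without HDAC8 1 the PFKM change was -0.51 (DESeq2 adjusted p = 0.00719), past the p threshold alone. Taken per kilobase, PFKP made up 67.04%, 69.32% and 71.75% of the phosphofructokinase transcripts in EV and 47.47%, 56.53% and 57.48% in HDAC8. The share of PFKL was 9.05% to 12.37% in EV and 22.05% to 26.06% in HDAC8, so both shares were apart between the groups, while that of PFKM overlapped. The ratio of PFKP to PFKM per kilobase overlapped as well, at 2.97, 3.78 and 3.74 in EV and 1.79, 2.64 and 3.00 in HDAC8.

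Of the bifunctional enzymes that make and remove fructose 2,6-bisphosphate, the activator of phosphofructokinase, PFKFB3 fell. This form, with the highest kinase activity (ENSG00000170525, chromosome 10, 6144934 to 6254644, plus strand), had 3145, 3324 and 3093 normalized counts in EV and 2192, 1605 and 1889 in HDAC8 (log2 fold change -0.75, SE 0.17, DESeq2 adjusted p = 3.19e-04). The EV values lay close together, and the HDAC8 values were all below them. PFKFB4 had 1644, 1814 and 1622 in EV and 2392, 1427 and 1417 in HDAC8, with HDAC8 1 highest of all and HDAC8 2 and 3 lowest, and was not called (log2 fold change 0.04, DESeq2 adjusted p = 0.962). The other genes of the upper chain overlapped between the groups. Fold changes were 1.10 for GPI, the isomerase of glucose 6-phosphate (95% interval 0.897 to 1.34), 0.940 for ALDOA, the main aldolase (0.775 to 1.14), and 0.975 for TPI1, the triose isomerase (log2 fold change -0.04, DESeq2 adjusted p = 0.946). ALDOC, the brain aldolase, was at 973 ± 253 normalized counts in EV and 834 ± 227 in HDAC8 (SD, n = 3), within the spread of the libraries, and the ALDOA to ALDOC ratio per kilobase overlapped between the groups, at 34.9, 27.7 and 28.8 in EV and 27.7, 43.9 and 31.4 in HDAC8.

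The lower chain, which yields the ATP, held the most called genes. PGAM1, the phosphoglycerate mutase (ENSG00000171314, chromosome 10, 97426191 to 97433444, plus strand), rose from 6093, 7689 and 6772 normalized counts to 13533, 12039.9 and 12398 (log2 fold change 0.89, SE 0.14, DESeq2 adjusted p = 1.17e-08). PGK1, the first ATP-forming kinase (ENSG00000102144, chromosome X, 77910739 to 78129295, plus strand), was higher in every HDAC8 library, at 17303, 13284 and 14209.7 against 8732, 9170.3 and 9566 (log2 fold change 0.71, SE 0.14, DESeq2 adjusted p = 1.65e-05). ENO1, the ubiquitous enolase (ENSG00000074800, chromosome 1, 8861000 to 8879190, minus strand), rose from 37184, 48371 and 36807 to 82129, 54756 and 56982, with HDAC8 1 far above the others (log2 fold change 0.66, SE 0.17, DESeq2 adjusted p = 0.00173). Without that library the ENO1 change was 0.45 (DESeq2 adjusted p = 0.00144), under the fold minimum, and without EV replicate 3 the adjusted p was 0.0501. ENO2, the neuronal enolase (ENSG00000111674, chromosome 12, 6913745 to 6923698, plus strand), fell from 4421, 4760.3 and 4932 to 3357, 2146 and 2842 (log2 fold change -0.76, SE 0.18, DESeq2 adjusted p = 5.49e-04). The enolases thus moved in opposite directions, and their ratio per kilobase was 10.8, 13.1 and 9.61 in EV and 31.5, 32.9 and 25.8 in HDAC8.

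GAPDH and PKM, at the start and end of the lower chain, were not called. GAPDH, often used as a reference gene, had 84571, 109316 and 88764 normalized counts in EV and 81196, 84215 and 86714 in HDAC8, with EV 2 highest (log2 fold change -0.17, SE 0.13, DESeq2 adjusted p = 0.519). Its fold change had a 95% interval of 0.746 to 1.07. With normalization within bins of GC content, GAPDH was at -0.25 (DESeq2 adjusted p = 0.0496), past the p threshold alone. PKM, pyruvate kinase, had 46892, 62106 and 48715 in EV and 65439, 57060.5 and 56490.5 in HDAC8 (log2 fold change 0.18, SE 0.14, DESeq2 adjusted p = 0.501), and isoforms M1 and M2 of this gene cannot be told apart in gene counts. Measured against GAPDH in the same library, PGAM1 was at 0.0514, 0.0502 and 0.0544 in EV and 0.119, 0.102 and 0.102 in HDAC8 per kilobase, and PGK1 at 0.0276, 0.0224 and 0.0288 in EV and 0.0569, 0.0421 and 0.0438 in HDAC8. Both ratios were apart between the groups, as was that of ENO1, at 0.317, 0.319 and 0.299 against 0.730, 0.469 and 0.474. Processed copies of PGAM1, PGK1 and ENO1 held at most 1.34% of the parent's count in a library.

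**Figure D2:**
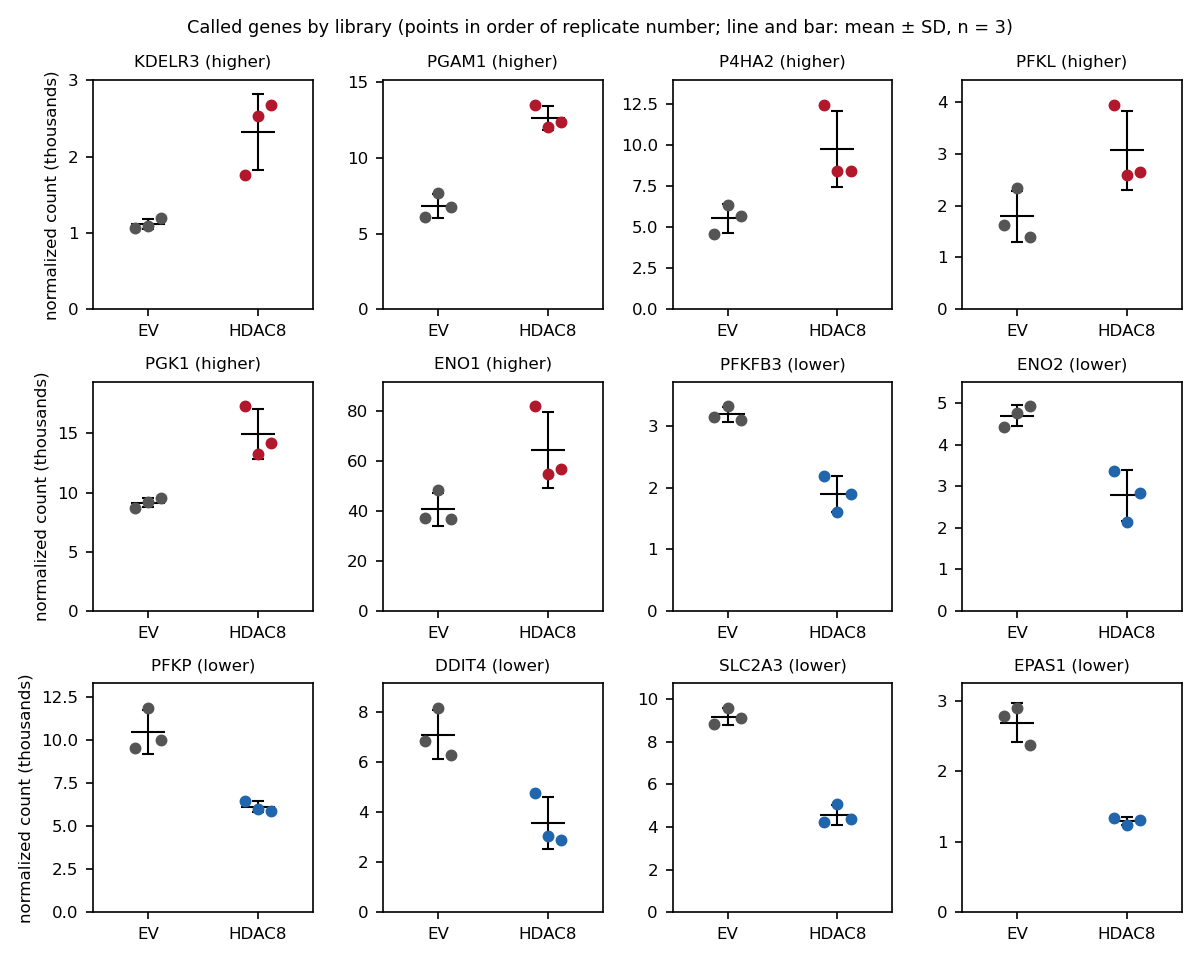
Normalized counts of the 12 called members in each library (points, in the order of replicate number; y axes start at 0), with the mean and SD of the 3 libraries of each group. In every panel the HDAC8 points lie wholly above (red) or below (blue) the EV points, and HDAC8 1 is the highest HDAC8 library in every panel but those of KDELR3 and SLC2A3, where it is the lowest.

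Sequences are shown for genes that moved in opposite directions, so that promoters can be set side by side. They are the 250 bases before the RefSeq transcript start (GRCh38.p14), in the direction of transcription, with matches to ACGTG or GCGTG on either strand in capitals. A match on the opposite strand reads CACGT or CACGC. The window of ENO1 is chr1:8878687-8878936 (minus strand), that of PGK1 is chrX:78103998-78104247 (plus strand) and that of ENO2 is chr12:6914330-6914579 (plus strand).
ENO1 (higher): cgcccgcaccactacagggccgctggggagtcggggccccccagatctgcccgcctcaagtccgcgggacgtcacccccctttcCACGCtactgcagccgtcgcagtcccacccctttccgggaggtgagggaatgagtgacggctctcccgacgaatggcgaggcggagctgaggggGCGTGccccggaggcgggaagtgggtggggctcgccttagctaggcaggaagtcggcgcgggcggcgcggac
PGK1 (higher): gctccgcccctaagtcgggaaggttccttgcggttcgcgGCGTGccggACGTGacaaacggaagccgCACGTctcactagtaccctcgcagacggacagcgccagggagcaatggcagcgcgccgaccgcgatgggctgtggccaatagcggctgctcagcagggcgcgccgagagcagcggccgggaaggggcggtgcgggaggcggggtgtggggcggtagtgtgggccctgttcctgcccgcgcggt
ENO2 (lower): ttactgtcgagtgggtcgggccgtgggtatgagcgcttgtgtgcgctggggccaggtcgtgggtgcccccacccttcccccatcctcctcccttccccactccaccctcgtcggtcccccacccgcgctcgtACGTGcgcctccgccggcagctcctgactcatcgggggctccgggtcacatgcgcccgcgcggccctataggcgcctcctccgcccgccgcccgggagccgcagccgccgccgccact

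The matches began 166 and 72 bases before the start in ENO1, 211, 202 and 183 bases before it in PGK1, and 118 bases before it in ENO2. All 3 windows were rich in G and C, at 72%, 71.2% and 74%. The search was also made in windows of 300 bases (250 before and 50 after the start) that lie within 50 bases of the main annotated start, which 32 of the members had. The core was found in 29 of these (90.6%), against 57.4% of 14489 such windows over all genes. It was present in the 4 higher and the 4 lower members that had a window, and in 19 of 22 that were not called, and the remaining windows belong to members without an adjusted p. The letters were therefore found on both sides of the comparison. ACGTG overlaps with the E-box CACGTG, which was in 6 of the 32 windows (18.8%) against 8.94% overall. The AP-1 motif TGACTCA, on either strand, was in 2 (6.25%) against 3.46%. The members were picked for roles in glycolysis or the hypoxia response, and windows were not matched for GC content. Shares above those of all genes therefore describe the list and were not tested. A match is only a run of letters, and binding was not measured in these data.

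Lactate dehydrogenase interconverts pyruvate and lactate, and neither subunit gene was called. LDHA, the subunit tied to lactate formation, had 11837, 11306 and 12857 normalized counts in EV and 13751, 16218 and 15863 in HDAC8. All HDAC8 values were higher, but the adjusted p missed the threshold (log2 fold change 0.35, SE 0.13, DESeq2 adjusted p = 0.0564). The p threshold was passed with total-count size factors (DESeq2 adjusted p = 0.018), with normalization within bins of GC content (1.24e-06) and without HDAC8 replicate 1 (4.46e-04). In these settings the LDHA change stayed under the fold minimum, at 0.39, 0.44 and 0.42. LDHB, the heart-type subunit, had 16872, 15385 and 17966 in EV and 15067, 10027 and 10307 in HDAC8, with HDAC8 1 just below the EV range and the others far below it (log2 fold change -0.50, SE 0.17, DESeq2 adjusted p = 0.0241). It passed the p threshold and not the fold minimum. Without HDAC8 replicate 1 the change of LDHB was -0.72 (DESeq2 adjusted p = 1.28e-10), past both. The p threshold was missed with edgeR's quasi-likelihood test (adjusted p = 0.0881). It was also missed with total-count size factors (DESeq2 adjusted p = 0.0706) and with normalization within bins of GC content (0.355). The same held without EV replicate 1 (DESeq2 adjusted p = 0.121), EV replicate 3 (0.17), HDAC8 replicate 2 (0.126) or HDAC8 replicate 3 (0.185). The LDHA to LDHB ratio per kilobase was 0.408, 0.427 and 0.416 in EV and 0.531, 0.940 and 0.895 in HDAC8.

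The kinases that switch off pyruvate dehydrogenase, the gate to the mitochondria, did not differ beyond their spread. PDK1, a HIF-1 target, had 2072, 1166 and 1938 normalized counts in EV and 1443, 1634 and 1562 in HDAC8 (log2 fold change -0.16, DESeq2 adjusted p = 0.791), and PDK3 had 582 ± 76.8 in EV and 557 ± 111 in HDAC8 (SD, n = 3).

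**Figure D3:**
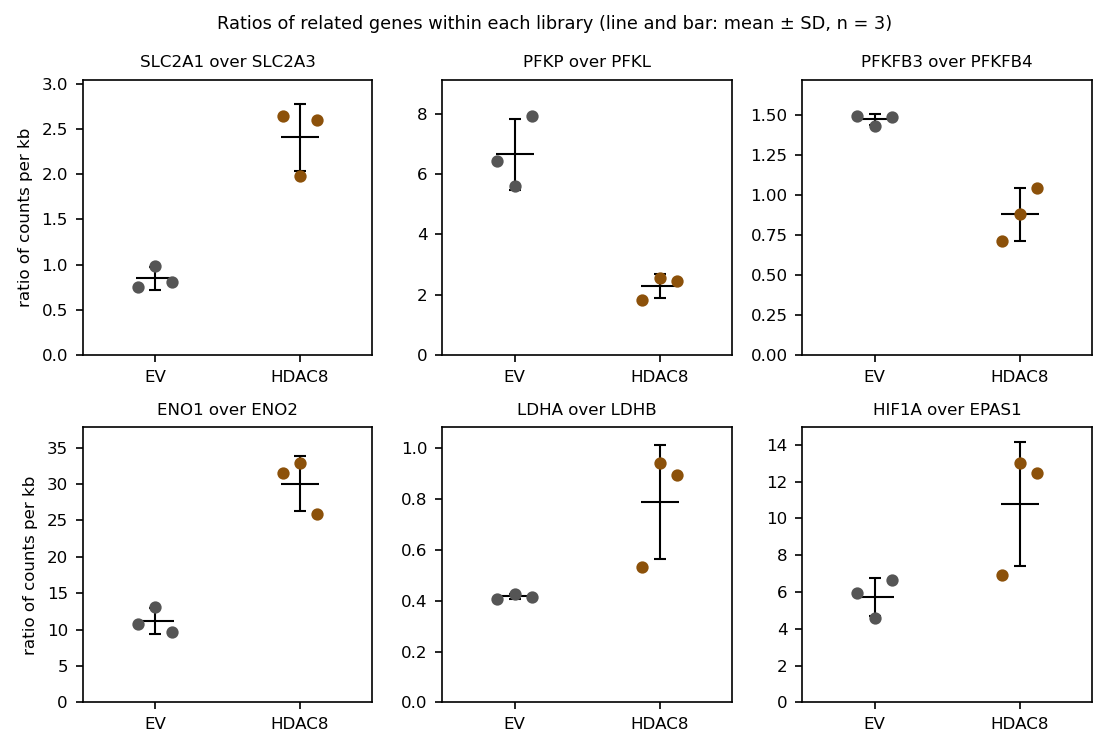
Ratio of the normalized counts per kilobase of 2 related genes within each library (points), with the mean and SD of the 3 libraries of each group; y axes start at 0. None of the plotted ratios overlaps between the groups: SLC2A1 over SLC2A3, ENO1 over ENO2, LDHA over LDHB and HIF1A over EPAS1 were higher in HDAC8, and PFKP over PFKL and PFKFB3 over PFKFB4 lower, with HDAC8 1 nearest to EV for LDHA over LDHB and HIF1A over EPAS1.

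Among the HIF subunits, EPAS1 fell and HIF1A did not change beyond the spread. EPAS1 encodes HIF-2α (ENSG00000116016, chromosome 2, 46293667 to 46386697, plus strand), and it had 2784, 2904 and 2376 normalized counts in EV and 1341, 1234 and 1306 in HDAC8. The HDAC8 libraries lay close together at about 48.1% of the EV level (log2 fold change -1.05, SE 0.17, DESeq2 adjusted p = 5.29e-08). HIF1A, which encodes HIF-1α, had 12671, 10181 and 12101 in EV and 7095, 12284 and 12446 in HDAC8 (log2 fold change -0.14, SE 0.19, DESeq2 adjusted p = 0.787). HDAC8 1 was the lowest of all and the other HDAC8 libraries were within the range of EV. Without HDAC8 1 the HIF1A change was 0.08 (DESeq2 adjusted p = 0.751), so the sign rests on that library. The 95% interval of the fold was 0.700 to 1.18. Per kilobase, HIF1A was 5.95, 4.58 and 6.65 times as abundant as EPAS1 in EV and 6.91, 13.0 and 12.4 times in HDAC8, with HDAC8 1 just above the EV range. ARNT, the shared partner, had 1340.4 ± 119 normalized counts in EV and 1289 ± 395 in HDAC8 (SD, n = 3) and was not called (log2 fold change -0.06, DESeq2 adjusted p = 0.947).

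The members that limit HIF, EGLN1, EGLN3 and VHL, were not called, and each had a fold change below 1. EGLN1, the main oxygen-sensing hydroxylase, had 3106, 2919 and 3034 normalized counts in EV and 1492, 2806 and 2245 in HDAC8, all below EV (log2 fold change -0.47, DESeq2 adjusted p = 0.144). VHL, the substrate receptor of the ligase, had 1612, 1921 and 1725 in EV and 1142, 1431 and 1193 in HDAC8, again without overlap (log2 fold change -0.48, DESeq2 adjusted p = 0.0794). Without HDAC8 replicate 2 both were called, EGLN1 at -0.69 (DESeq2 adjusted p = 0.0128) and VHL at -0.58 (0.0426). VHL passed the p threshold alone with at least 10 counts in every library (DESeq2 adjusted p = 0.0437) and with normalization within bins of GC content (0.0349). EGLN3, a hydroxylase that HIF itself induces, had few counts, from 9.44 to 62.1 normalized counts in EV and 26.6 to 33.8 in HDAC8. Its reads can be shared with 1 processed copy, which held 0% to 789% of its count by library.

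None of the secreted HIF targets among the members was called. VEGFA, the main angiogenic growth factor, had 5083, 5649 and 5148 normalized counts in EV and 4292, 3607 and 4421 in HDAC8, all below EV (log2 fold change -0.37, SE 0.15, DESeq2 adjusted p = 0.0846). VEGFA passed the p threshold alone with normalization within bins of GC content (DESeq2 adjusted p = 8.6e-04) and without HDAC8 replicate 1 (0.0222). ADM, the vasodilator adrenomedullin, had 434, 538 and 631 in EV and 251, 388 and 332 in HDAC8, also apart (log2 fold change -0.72, SE 0.32, DESeq2 adjusted p = 0.122). Neither was called, but ADM was called when genes had to have at least 10 counts in every library (log2 fold change -0.72, DESeq2 adjusted p = 0.0399). ANGPTL4, an inhibitor of lipoprotein lipase, had 0, 14.9 and 0 in EV and 3.42, 0 and 0 in HDAC8. CA9, the carbonic anhydrase that is a standard marker of hypoxia, was at 0, 0 and 4.93 in EV and 15.4, 0 and 0 in HDAC8. DESeq2 gave neither of these an adjusted p, and no difference was detectable at this depth, where a count of 0 allows up to 2.57 to 3.27 normalized counts. CA12, a related carbonic anhydrase, was also low, at 15.7, 27.1 and 18.7 in EV and 1.71, 0 and 21.8 in HDAC8 (log2 fold change -1.40, DESeq2 adjusted p = 0.734).

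Intracellular targets diverged. DDIT4, an inhibitor of mTORC1 that hypoxia and other stresses induce (ENSG00000168209, chromosome 10, 72273919 to 72276036, plus strand), fell from 6859, 8178 and 6272 normalized counts in EV to 4776, 3048 and 2884 in HDAC8 (log2 fold change -0.99, SE 0.20, DESeq2 adjusted p = 1.63e-05). HDAC8 1 lay between the other HDAC8 libraries and the EV range. KDELR3, a receptor that returns proteins to the endoplasmic reticulum (ENSG00000100196, chromosome 22, 38468078 to 38483447, plus strand), rose from 1063, 1092 and 1193 to 1762, 2529 and 2682, with HDAC8 1 nearest to EV (log2 fold change 1.06, SE 0.21, DESeq2 adjusted p = 9.50e-06). It had the largest rise among the members with an adjusted p. The promoter of DDIT4 is shown as the lower member with the most matches to the core. Its window is chr10:72273674-72273923 (plus strand), and matches began 219, 125 and 53 bases before the start.
DDIT4 (lower): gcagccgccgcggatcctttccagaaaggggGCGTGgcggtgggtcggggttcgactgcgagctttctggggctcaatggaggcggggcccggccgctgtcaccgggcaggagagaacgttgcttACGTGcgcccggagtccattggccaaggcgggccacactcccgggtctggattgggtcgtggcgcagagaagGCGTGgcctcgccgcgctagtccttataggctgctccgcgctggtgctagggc

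Receptors of mitochondrial removal were not called. BNIP3, a mitophagy receptor, had 636, 698 and 823 normalized counts in EV and 864, 1165 and 1040.0 in HDAC8, all above EV (log2 fold change 0.51, DESeq2 adjusted p = 0.152). Its reads can be shared with processed copies, which held 5.93% to 29.4% of its count, and with copies added the groups overlapped (736, 769.6 and 924 against 916, 1509 and 1183). BNIP3L, its paralog, had 976, 785 and 869 in EV and 917, 1475 and 1424 in HDAC8, with HDAC8 1 inside the EV range (log2 fold change 0.54, DESeq2 adjusted p = 0.137), and was called without that library (0.72, DESeq2 adjusted p = 0.00542). With normalization within bins of GC content both were called, BNIP3 at 0.59 (DESeq2 adjusted p = 0.0219) and BNIP3L at 0.64 (0.00352). NDRG1, a hypoxia-induced differentiation gene, had 6331, 7566 and 6214 in EV and 8155, 9202 and 9134 in HDAC8, apart and past the p threshold alone (log2 fold change 0.40, SE 0.14, DESeq2 adjusted p = 0.0399). BHLHE40, a repressor of the circadian system, overlapped between the groups (log2 fold change -0.15, DESeq2 adjusted p = 0.691). ANKRD37, a small HIF-1 target, varied widely, at 41.9, 138 and 129 in EV and 95.8, 30.7 and 19.6 in HDAC8 (log2 fold change -1.08, DESeq2 adjusted p = 0.472).

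Collagen modification differed by gene. P4HA2 encodes a catalytic subunit of the enzyme that hydroxylates prolines in collagen (ENSG00000072682, chromosome 5, 132190147 to 132295315, minus strand). It rose from 4602, 6349.8 and 5672 normalized counts in EV to 12450.0, 8414 and 8425 in HDAC8, with HDAC8 1 highest (log2 fold change 0.82, SE 0.18, DESeq2 adjusted p = 1.93e-04). P4HA1, the alternative subunit, overlapped between the groups, at 6264, 5649 and 6438 in EV and 5444, 6847 and 7470.2 in HDAC8 (log2 fold change 0.11, SE 0.16, DESeq2 adjusted p = 0.792). LOX, which cross-links collagen, was at 111 ± 55.1 normalized counts in EV and 112 ± 34.8 in HDAC8 (SD, n = 3), and the 95% interval of its fold change ran from 0.441 to 2.33, so a change of moderate size was not detectable.

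Levels of different genes were compared per kilobase of the MANE Select transcript. In EV, GAPDH was highest at 73321 ± 10306 normalized counts per kilobase (SD, n = 3), followed by ENO1 at 22902 ± 3689, PKM at 22807 ± 3604 and ALDOA at 18097 ± 2994, and ENO1 and PKM did not differ beyond their spread. LDHB (12848 ± 994) and TPI1 (10981 ± 1594) came next and were also close to each other. In HDAC8, GAPDH was again highest (65402 ± 2150.4), with ENO1 at 36284 ± 8536 and PKM at 25884 ± 2174. PGAM1, at 3802 ± 444 in EV, was at 7024 ± 432 in HDAC8, near LDHA (6817 ± 595). EPAS1 was among the lower of the well detected members, at 521 ± 53.6 in EV and 251 ± 10.6 in HDAC8. The enzymes of the chain from hexokinase to lactate dehydrogenase, 17 genes, took 0.793% to 0.963% of all counts in EV and 0.878% to 1.10% in HDAC8, so their sum overlapped between the groups. Without mitochondrially encoded counts in the total, the shares were 0.909% to 1.07% and 0.953% to 1.16%.

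Single libraries shaped many values. Among the 40 members with a mean of at least 50, HDAC8 1 was the HDAC8 library farthest from the middle one in 28 (70%), and EV 2 was that of its group in 28 (70%). Over all 14451 genes at that level, the shares were 55.1% and 42.7%. HDAC8 1 also had the lowest mitochondrially encoded share, 4.46%. Without HDAC8 1, 5 members were called higher and 7 lower. Without EV 2, 7 were called higher and 6 lower.

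Other genes of the pathway were counted from 5 lists written from general knowledge, at a time when earlier results of these data were known. Their counts are therefore descriptive. They were not tested against the shares called among all genes, 5.57% higher and 5.44% lower. Of 120 genes, 99 had an adjusted p, and 11 were called higher and 7 lower, with a median log2 fold change of 0.10. The list of other hypoxia targets shares this limit. Of its 42 measured genes, 10 were called higher and 1 lower, with a median of 0.27. The largest was FLT1, the VEGF receptor 1, with 329, 284 and 336 normalized counts in EV and 4379, 6918 and 7370.0 in HDAC8 (log2 fold change 4.30, SE 0.21, DESeq2 adjusted p = 1.42e-92). STC1, a secreted glycoprotein, rose from 46.5 ± 13.1 to 462 ± 49.0 (SD, n = 3; log2 fold change 3.31, DESeq2 adjusted p = 1.29e-14). NT5E, the ecto-enzyme CD73 that forms adenosine, was at 706 ± 87.9 in EV and 5551 ± 1160.3 in HDAC8 (log2 fold change 2.97, DESeq2 adjusted p = 1.24e-50). TMEM45A and LOXL4, a lysyl oxidase relative, were higher by 2.75 and 1.79 (log2), each with 1 HDAC8 library far above the others. HMOX1, haem oxygenase 1, fell from 2649, 3295 and 2838 to 794, 486 and 714 (log2 fold change -2.14, SE 0.22, DESeq2 adjusted p = 8.72e-21). The remaining called genes of that list, named after their values were seen, were PLOD1 (1.21), AK4 (1.18), TPBG (0.91), LOXL2 (0.87) and TFRC (0.59), all higher (log2 fold changes). Classical targets on the list, also named after their values were seen, such as HILPDA (log2 fold change 0.20, DESeq2 adjusted p = 0.853), KDM3A (-0.03, 0.962) and MXI1 (0.24, 0.544) were not called. Of the 31 genes not called, 4 passed the p threshold but not the fold minimum. ERO1A (log2 fold change 0.578, DESeq2 adjusted p = 0.0106), GPRC5A (0.57, 0.00235) and KDM4B (0.572, 0.0346) were higher, and WSB1 (-0.508, 0.0428) was lower.

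Of 17 other glycolysis and glycogen genes with an adjusted p, 0 were called higher and 3 lower. Over all genes tested, 11% were called in either direction, and 14% where the mean reached 50 normalized counts. The counts of this and the following short lists were not tested against that share. PFKFB2, a further bifunctional enzyme, fell from 2966, 2773 and 3139.6 normalized counts to 1819.6, 1454 and 1534 (log2 fold change -0.88, SE 0.17, DESeq2 adjusted p = 7.78e-06). TIGAR, a fructose bisphosphatase that opposes phosphofructokinase, fell from 1221, 1205 and 1360.5 to 652, 824 and 662 (log2 fold change -0.82, SE 0.22, DESeq2 adjusted p = 0.00226). The third, LDHD, had 31.5 to 78.5 normalized counts in EV and at most 6.14 in HDAC8, and was named after its values were seen. Of 11 pyruvate dehydrogenase and carrier genes with an adjusted p, 1 was called. It was PDP1, the phosphatase that reactivates pyruvate dehydrogenase, at 2412, 2163 and 2691 in EV and 6334, 8517 and 8091 in HDAC8 (log2 fold change 1.66, SE 0.16, DESeq2 adjusted p = 1.14e-21). Among the HIF pathway components, CITED2, a competitor of HIF-1α for EP300 and CREBBP, was the 1 gene called of 17, at 327, 228 and 318 in EV and 53.0, 121 and 166 in HDAC8 (log2 fold change -1.37, SE 0.49, DESeq2 adjusted p = 0.0423). Of 12 glucose and lactate transporters with an adjusted p, SLC2A13, a proton-coupled inositol transporter, fell (log2 fold change -0.61, SE 0.23, DESeq2 adjusted p = 0.0489). SLC16A7, named after its values were seen, had 19.9, 10.3 and 40.4 normalized counts in EV and was at 0 in HDAC8. The lactate exporter SLC16A3, likewise named afterwards with SLC16A1, had 4572, 6107 and 3656 in EV and 13684, 7045 and 7881 in HDAC8, apart between the groups and not called (log2 fold change 1.00, SE 0.38, DESeq2 adjusted p = 0.0641), and SLC16A1 overlapped (log2 fold change -0.09, DESeq2 adjusted p = 0.779).

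**Figure D4:**
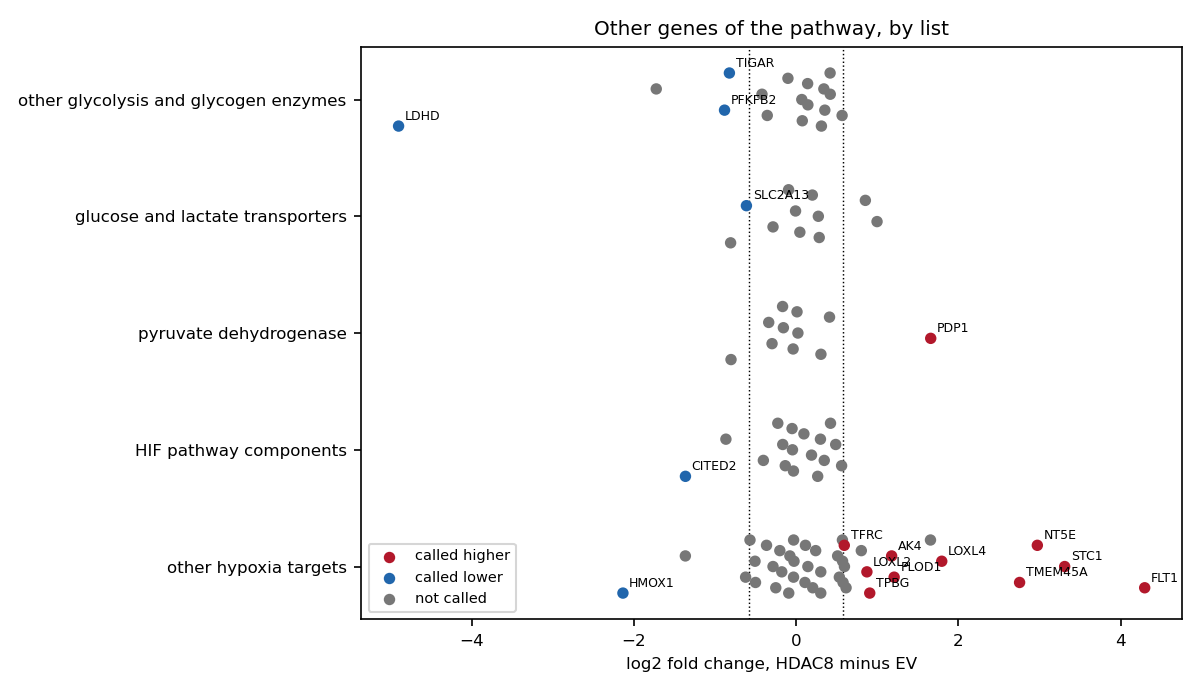
Log2 fold change of HDAC8 over EV (x axis) of the other pathway genes with an adjusted p and counts in both groups, by list (rows; points are spread vertically only for legibility), with dotted lines at the fold change minimum. Called genes are labelled, 11 higher in red, from TFRC at 0.59 to FLT1 at 4.30, and lower ones in blue, and most of the higher ones are in the row of other hypoxia targets.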

How the data were processed

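Per the study's methods, read pairs were trimmed (Trimmomatic), mapped to transcripts (STAR) and assigned to genes (RSEM). The table deposited by the authors holds the resulting expected counts per gene, unscaled, in which a read is divided among the genes it may come from. Genome build, annotation and use of strand are not given in the sources used here. The labels and the methods name different RNA extraction kits.

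Expected counts were rounded. DESeq2 1.42.0 (R 4.3.3) was fitted to the 26162 genes whose counts summed to 10 or more, with its own size factors (0.918 to 1.169), and its two-sided Wald test compared the HDAC8 with the EV libraries. Adjustment was by Benjamini-Hochberg over all genes, and 5141 genes without an adjusted p were left out of counts of calls. Intervals are at the 95% level. Floors (3 counts) cover counting error only. Gene positions, MANE Select transcript lengths and GC content came from GENCODE release 44 (GRCh38), and promoter windows from RefSeq (GRCh38.p14), where 32 members had one.

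Members, lists and tests were chosen with earlier results of these data known. Every called member was described in full, with HIF1A, EPAS1, VEGFA, LDHA, LDHB, SLC2A1, SLC2A3, HK1 and HK2. The most abundant gene of each role group was named, with fewer values for ALDOA, PDK1 and CA12. Of the other lists, called genes with a mean of at least 50 were named, at most 6 each. Alternatives were edgeR 4.0.16 (quasi-likelihood) and limma-voom (limma 3.58.1) with TMM scaling, other size factors, filters, a replicate block, a fit without mitochondrially encoded genes, 20 GC bins, no fold minimum, and each library left out. The fits were tested on simulated data. Libraries of the same group differed beyond counting error (chi-square per degree of freedom 26 to 153.4), and none was taken as a repeat of another. The values of 1 marker gene are not reported here.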

Additional observations from a re-analysis of the deposited data

How the results depend on the processing

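The member counts, 6 higher and 6 lower, stayed within 1.5 times under all alternatives, from 4 to 9 higher and from 6 to 8 lower. Replicate numbers did not pair the libraries, with correlations of their deviations of -0.027, -0.066 and 0.04, and with the replicate block the counts were 6 and 6. Of 628 member alternatives, the direction and call held in 595, the call was lost in 6 and gained in 8, and the direction turned in 19, and 24 of 42 members kept both throughout. For a member that was not called, an adjusted p that crossed its threshold alone was not counted as a change. Lost calls were those of PFKL and ENO1, and gained ones those of SLC2A1, LDHB, EGLN1, VHL, ADM, BNIP3 and BNIP3L, as given above. No member that changed direction was called in any setting. With total-count size factors TPI1 was at 0.013, with the replicate block PFKFB4 was at -0.001, and with GC bins PFKFB4 was at -0.082 and PDK3 at 0.018 (log2). With 1 library left out, log2 fold changes ran from -0.168 to 0.054 for ALDOA, -0.422 to 0 for ALDOC, -0.148 to 0.087 for TPI1, -0.254 to 0.174 for PFKFB4, -0.162 to 0.099 for PDK3, -0.264 to 0.084 for HIF1A, -0.333 to 0.095 for ARNT, -0.882 to 0.054 for EGLN3 and -0.343 to 0.319 for LOX. Of the other pathway genes, 17 were called higher with GC bins and 3 lower with edgeR, and with 1 library left out 4 (without EV replicate 1, 2 or 3 in turn) to 9 lower. Of all genes, 1143 were lower, and 746 (without EV replicate 3) to 1378 with 1 library left out. The cause was not tested. The share of higher calls among all genes was 50.6%, and 56.4% with total-count size factors. Depth limits the members with under 50 normalized counts on average, CA9, CA12, ANGPTL4 and EGLN3, and reads of EGLN3 can also be shared with its copy.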
